A study of Mus musculus with 7 samples.

Results

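Beta-defensins are small cationic peptides, held together by disulfide bonds, that epithelia secrete and that damage microbial membranes and attract immune cells. In skin they are made mainly by keratinocytes, some steadily and others after infection, injury or signals such as interleukin-17, interleukin-22 and interleukin-1. In mice many of their genes sit in clusters of tandem copies. Of the 56691 genes in the deposited count table, 6 are described here, the beta-defensin genes Defb1, Defb3, Defb4, Defb6, Defb8 and Defb14, matched by gene name. They were chosen with results of this comparison known, because Defb8 had differed between the genotypes, so the differences of the members are a description, and a call of Defb8 restates that choice and supports nothing.

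The skin came from 3 Tuft1 knockout mice (KO mice 2, 3 and 4), whose skin looked healthy, and from 4 wild-type mice (WT mice 5, 6, 7 and 8) with healthy skin, with 1 library per mouse. Tuft1 encodes tuftelin 1, which the study describes as a protein of desmosomes, the junctions between keratinocytes. Strain, age, body site and the design of the knockout allele are not given in the sources used here. The libraries read the 3' ends of polyadenylated RNA, so a count does not grow with transcript length. They held 7009237 to 9086523 counts in KO and 8490972 to 9256459 counts in WT. Tuft1 stood at 19.9, 29.1 and 17.2 CPM in KO, all below the 106, 104, 55.6 and 114 CPM of WT. CPM here are counts scaled to a common library size, with TMM factors that even out differences in library composition. All 10 suprabasal and all 7 basal keratinocyte markers looked up had counts, as skin should show. Of 7 markers of mucosal epithelium, where several beta-defensins are abundant, Krt13, Muc4, Muc5b and Bpifa1 had 0 counts, and the summed level of the list was 1.12 to 9.06 CPM in KO and 0 to 5.18 CPM in WT.

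All 6 genes lie on chromosome 8 (mm39), each with 2 exons, and no exon of theirs overlaps an exon of another gene in the table. Defb14 (ENSMUSG00000046354.4, 19244373 to 19245228), Defb4 (ENSMUSG00000059230.3, 19248722 to 19251561), Defb6 (ENSMUSG00000050756.4, 19275494 to 19278225) and Defb3 (ENSMUSG00000039775.8, 19343376 to 19345307) are on the plus strand. Defb8 (ENSMUSG00000031471.4, 19495785 to 19497622) is on the minus strand, and Defb1 (ENSMUSG00000044748.9, 22266615 to 22285201) lies apart on the plus strand. Upstream sequences were at hand in the RefSeq promoter table (GRCm38) for 3 of the 6, Defb8, Defb6 and Defb3, but not for Defb1, Defb4 and Defb14. They are shown because Defb8 and Defb6 had the most counts of all beta-defensins in KO skin, while Defb3, whose upstream sequence is the closest to that of Defb8, had none. Each is the 250 bases before the annotated transcript start, 5′ to 3′ on the gene's strand. The Defb8 sequence is chr8:19447607-19447856 (minus), that of Defb6 is chr8:19225228-19225477 (plus) and that of Defb3 is chr8:19293111-19293360 (plus). Capitals mark matches to the core promoter element TATATAA, to the octamer ATGCAAAT, and to GGGGATCC, each searched on both strands. These motifs and the others searched were chosen after the sequences had been read, so what the sequences share in them is a description.
Defb8: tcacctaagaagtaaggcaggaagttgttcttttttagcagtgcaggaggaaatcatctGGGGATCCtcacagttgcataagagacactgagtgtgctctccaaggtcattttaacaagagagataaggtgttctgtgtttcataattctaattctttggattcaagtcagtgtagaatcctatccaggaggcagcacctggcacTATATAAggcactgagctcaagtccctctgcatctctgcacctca
Defb6: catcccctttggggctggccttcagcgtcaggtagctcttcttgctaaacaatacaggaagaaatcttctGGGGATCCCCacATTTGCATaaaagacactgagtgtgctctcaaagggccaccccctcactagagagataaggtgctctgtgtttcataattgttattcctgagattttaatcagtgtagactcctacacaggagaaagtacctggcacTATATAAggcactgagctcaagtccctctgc
Defb3: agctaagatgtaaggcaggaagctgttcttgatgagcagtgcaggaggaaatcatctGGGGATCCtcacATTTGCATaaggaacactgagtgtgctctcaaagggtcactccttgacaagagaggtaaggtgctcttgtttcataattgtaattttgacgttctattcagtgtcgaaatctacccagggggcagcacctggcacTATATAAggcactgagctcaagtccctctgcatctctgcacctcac

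TATATAA was present once in each of the 3 sequences, against 3.04% of the 32851 upstream windows of the same length in the table. GGGGATCC was also present in all 3, against 0.868% of windows. In Defb6 it occurs as a pair of overlapping matches, 1 on each strand. The octamer was present in Defb6 and Defb3 and not in Defb8, against 1.6% of windows. TGANTCA, the AP-1 motif, was in none of the 3, against 6.75% of windows. A loose NF-kappaB form, GGG and CC with any 5 bases between them, had 4 matches in Defb6, 2 in Defb3 and 0 in Defb8, against 45.8% of windows with a match. In Defb6, 1 of these begins at the same base as the pair of GGGGATCC matches. A match says only that these letters are present. In pairwise alignments Defb8 was identical to Defb3 at 220 of 254 aligned positions (86.6%) and to Defb6 at 192 of 264 (72.7%), and Defb3 was identical to Defb6 at 192 of 265 (72.5%). Of 29 upstream windows of other beta-defensin genes in the table, the 5 closest to Defb8 were Defb3, Defb5 (76.1%), Defb7 (75.4%), Defb6 and Defb46 (69.1%), and of these only Defb6 had any counts in the 7 libraries. The rest lay between 43.5% and 50.9%.

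Of 43 genes in the table whose names begin with Defb, 5 had any counts, and all 5 are described here. The other 38, Defb3 among them, were at 0 in every library. All 45 genes named as alpha-defensins (Defa), which in mice are peptides of intestinal Paneth cells, were also at 0. In the stretch of 303 kb from Defb14 to Defb7, 4 of 15 annotated genes had counts. Within 200 kb on either side of Defb8, it was the only 1 of 15 genes with counts, so its nearest neighbours give no value to set beside it.

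**Figure D1:**
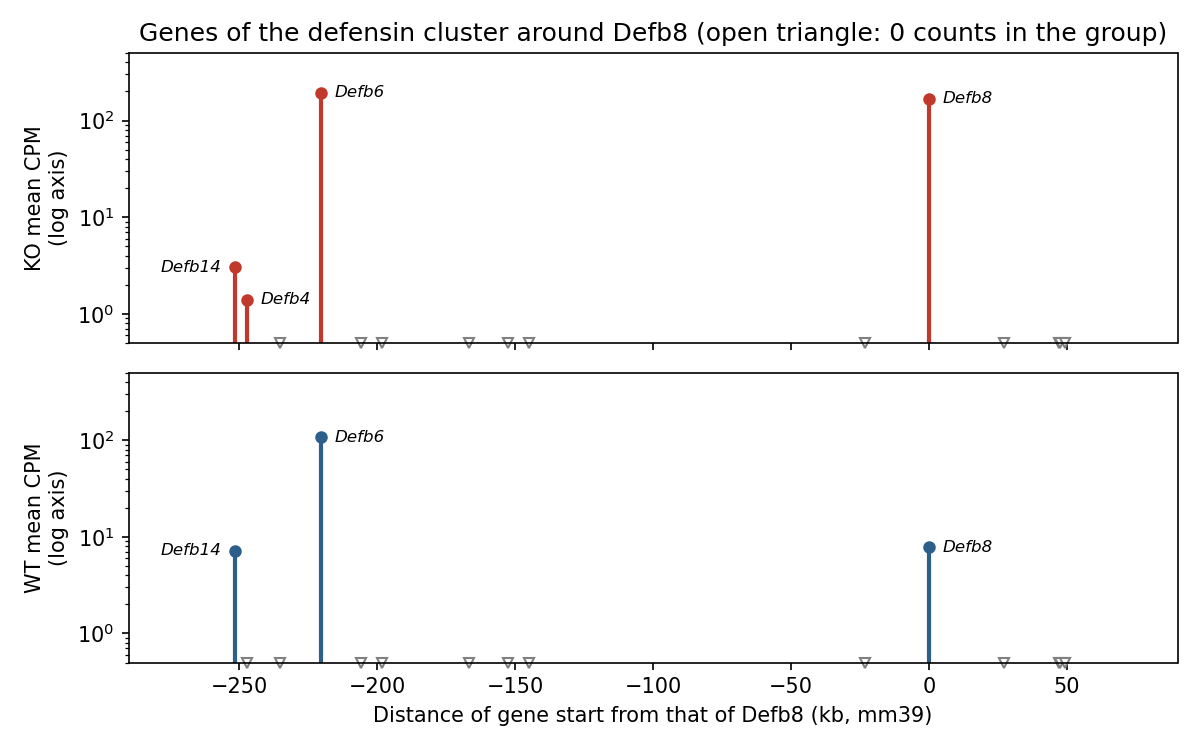
Mean TMM-scaled CPM (log axis) of the genes from Defb14 to Defb7 by distance from Defb8 in kb, for 3 KO mice (upper) and 4 WT mice (lower), with open triangles for genes at 0 counts in that group. Defb6 and Defb8 stood at 193 and 168 CPM in KO and at 107 and 7.80 CPM in WT, while most of the other genes had 0 counts.

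Defb8 was higher in all 3 KO mice than in any WT mouse. RefSeq lists it also as Defr1, a name first used for the form found in C57BL/6 mice, which lacks the first of the conserved cysteines. It had 917, 2445 and 842 counts in KO mice 2, 3 and 4, and 39, 73, 40 and 112 counts in WT mice 5, 6, 7 and 8. Scaled, these were 119, 274 and 111 CPM in KO, against 4.199, 8.22, 4.91 and 13.9 CPM in WT. KO mouse 3 was the highest of the 7 mice and WT mouse 8 the highest of WT, and the lowest KO value was 7.99-fold above the highest WT value. The group means were 168 ± 92.0 CPM in KO (SD, n = 3) and 7.80 ± 4.41 CPM in WT (SD, n = 4), a ratio of 21.5. The fitted log2 fold change, KO over WT, was 4.43 (SE 0.50). Within a group the values also spread, 2.47-fold between the extremes in KO and 3.30-fold in WT.

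By number of counts Defb8 ranked 1433, 463 and 1462 in KO libraries 2, 3 and 4, where 3.72% to 11.9% of detected genes had more counts. In WT libraries 5, 6, 7 and 8 it ranked 10778, 9639, 10398 and 7845, with 59.7% to 84.8% of detected genes above it. The WT level therefore rests on few counts. In 5 of the 7 libraries fewer genes had 10 to 29 counts than 70 to 89 counts, and the part of this thinning at low counts in the ratio was not tested. Without KO mouse 3 the KO mean was 115 ± 5.61 CPM (n = 2) and the ratio to WT 14.7. In edgeR's quasi-likelihood test over all genes, Defb8 was 1 of 3 genes of 12888 called at an adjusted p below 0.05 (0.0233% of genes tested). This call is what led to the choice of the family. Leaving out KO mouse 3 or WT mouse 5, 6 or 7 ended it, as did limma-voom in place of edgeR, with the log2 fold change between 3.88 and 4.86 over the 7 fits that leave out a mouse.

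**Figure D2:**
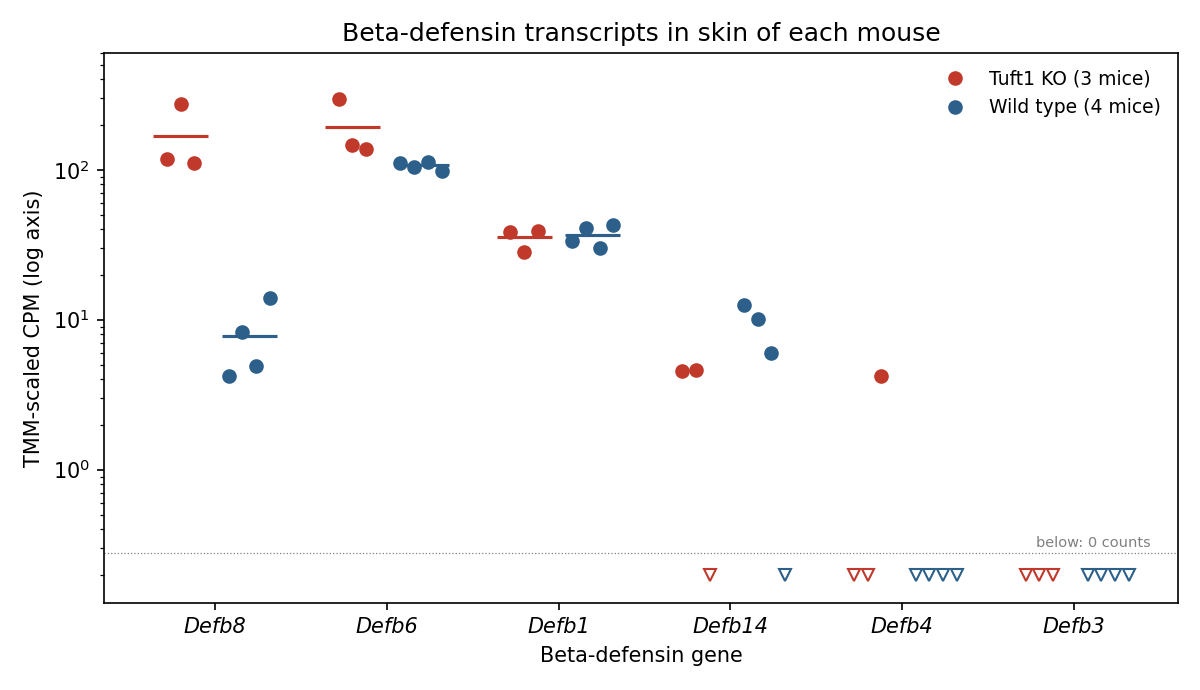
TMM-scaled CPM (log axis) of each beta-defensin gene in each mouse, with KO (3 mice, red) left of WT (4 mice, blue), lines for group means where every mouse had counts, and open triangles for 0 counts. Defb8 does not overlap between the groups (111 to 274 CPM in KO, 4.199 to 13.9 CPM in WT), while the ranges of Defb1 overlap (28.3 to 39.1 CPM in KO, 30.2 to 42.7 CPM in WT).

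Defb6, first described in mouse skeletal muscle and upper airway and oral epithelia, was the most abundant beta-defensin of WT skin. It had 2291, 1300 and 1037 counts in KO mice 2, 3 and 4, and 1036, 928, 921 and 793 counts in WT mice 5, 6, 7 and 8. This came to 297, 146 and 136 CPM in KO, against 112, 104, 113 and 98.1 CPM in WT. The groups did not overlap, but the gap was small: the lowest KO value was 1.21-fold above the highest WT value. WT mice were close together, within 1.15-fold, while KO mouse 2 stood well above the other KO mice. Means were 193 ± 89.9 CPM in KO (n = 3) and 107 ± 6.88 CPM in WT (n = 4), and the log2 fold change was 0.85 (SE 0.29). Without KO mouse 2 the log2 fold change was 0.40 and the KO mean 141 ± 6.52 CPM (n = 2), 1.32-fold that of WT. Among all 12888 genes tested, 3.44% were higher in KO without overlap and 3.45% lower, and Defb8 and Defb6 were 2 of the 4 tested members higher in this way. The family was chosen because Defb8 differed, so the place of Defb8 in this count was fixed beforehand.

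KO mouse 2 also stood apart in hair. The summed level of 17 listed genes of the hair shaft and inner root sheath was 900 CPM there, and 19.6 CPM in each of KO mice 3 and 4, against 9.12 to 17.9 CPM in WT. Its part in the Defb6 value was not tested. Muscle transcripts varied too, here Myh4 and Acta1, a myosin and an actin of muscle fibres, both chosen after values were seen. Myh4 was at 540, 6376 and 3753 CPM in KO mice 2, 3 and 4, and 756 to 1825 CPM in WT. Acta1 was at 8965, 8425 and 12794 CPM in KO and 7773 to 12055 CPM in WT. KO mouse 2, with the most Defb6, was the lowest of all mice for Myh4 but not for Acta1.

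Defb1, which epithelia express steadily, did not separate the groups. It had 298, 253 and 297 counts in KO and 312, 365, 246 and 345 counts in WT. This was 38.6, 28.3 and 39.1 CPM in KO, against 33.6, 41.1, 30.2 and 42.7 CPM in WT, so the ranges overlap in part. KO mouse 3 lay below every WT mouse, and WT mice 6 and 8 lay above every KO mouse. Means were 35.3 ± 6.05 CPM in KO and 36.9 ± 5.97 CPM in WT, with a log2 fold change of -0.06 (SE 0.45).

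Defb14, the mouse counterpart of human beta-defensin 3 and known to be inducible in skin, was low and patchy. It had 35, 41 and 0 counts in KO mice 2, 3 and 4, and 116, 90, 49 and 0 counts in WT mice 5, 6, 7 and 8. This was 4.53, 4.59 and 0 CPM in KO, against 12.5, 10.1, 6.01 and 0 CPM in WT. The 3 WT mice with counts lay above all KO mice, but WT mouse 8 had none, so the groups overlap. The log2 fold change was -1.23 with an SE of 2.35, so neither direction is shown.

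Defb4, known in mice from airway, tongue and oesophagus, had 32 counts (4.21 CPM) in KO mouse 4 and 0 in the other 6 libraries. Defb3, an inducible defensin of mouse airways and oral mucosa, had 0 counts in all 7. Taking 3 counts as the limit, a count of 0 allows up to 0.336 to 0.395 CPM in the KO libraries and 0.323 to 0.371 CPM in the WT libraries. These limits cover counting error only. Neither gene passed the filter on low counts, which requires at least about 10 counts in 3 libraries, and neither was tested.

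Together the 6 genes made 458, 452 and 290 CPM in KO mice 2, 3 and 4, and 162, 164, 154 and 155 CPM in WT mice 5, 6, 7 and 8. WT mice agreed closely on this sum (159 ± 4.94 CPM), and KO mice did not (400.4 ± 95.3 CPM). The make-up differed as well. Defb8 was 25.9%, 60.5% and 38.1% of member counts in KO, against 2.59%, 5.01%, 3.18% and 8.96% in WT. Defb6 was 64.7%, 32.2% and 47.0% in KO, against 68.9%, 63.7%, 73.3% and 63.4% in WT. Defb6 outnumbered Defb8 by 7.08-fold to 26.6-fold in the WT mice, while in KO mouse 3 Defb8 outnumbered Defb6 by 1.88-fold. KO mice 2 and 3 thus had nearly the same sum with different leading genes. The order of the mean levels was Defb6, Defb8, Defb1, Defb14 and Defb4 in KO, where Defb6 and Defb8 overlap between mice, as do Defb14 and Defb4. In WT it was Defb6, Defb1, Defb8 and Defb14, where Defb8 and Defb14 overlap.

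**Figure D3:**
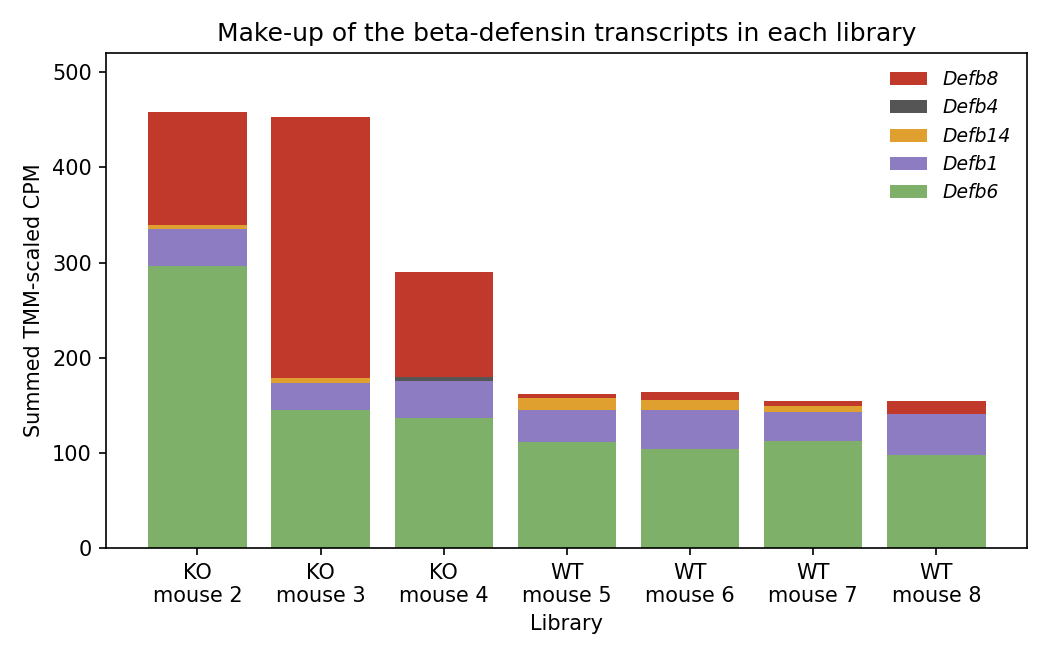
Stacked bars of TMM-scaled CPM of the beta-defensin genes in each library, KO mice 2 to 4 on the left and WT mice 5 to 8 on the right. The Defb8 part is 111 to 274 CPM in KO and 4.199 to 13.9 CPM in WT, and the WT bars all end between 154 and 164 CPM.

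In bulk skin, more cells that make a transcript and more transcript per cell cannot be told apart. Set against keratinocytes, by the summed level of the 17 basal and suprabasal markers, Defb8 was 0.513%, 1.25% and 0.579% in KO mice 2, 3 and 4, and 0.0151%, 0.0328%, 0.0174% and 0.0597% in WT mice 5, 6, 7 and 8. Defb6 was 1.28%, 0.663% and 0.713% in KO, against 0.400% to 0.423% in WT. On this scale, chosen after seeing the data, the differences of mean log2 ratios were 4.74 for Defb8 and 1.04 for Defb6. The fitted edgeR log2 fold changes per library, 4.43 and 0.85, are a different measure, so the sizes are not strictly comparable. The keratinocyte sum itself was lower in every KO mouse (19143 to 23129 CPM) than in any WT mouse (23212 to 28259 CPM). This alone raises a ratio to it in KO.

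Marker lists of skin cell types were summed in the same libraries. The 10 suprabasal markers summed to 10857 to 16537 CPM in KO and 17156 to 21731 CPM in WT, without overlap, and 4 of 10 had a log2 fold change above 0. The 7 basal markers summed to 6592 to 8286 CPM in KO and 6057 to 8079 CPM in WT. Of 14 markers of the upper follicle and its stem cells, 12 had a log2 fold change above 0, and their sum was 3200.5 to 5432 CPM in KO and 2579 to 3738 CPM in WT. Of 11 tested sebaceous markers 10 were above 0, and the 12 listed summed to 2494 to 4949 CPM in KO and 2276 to 2908 CPM in WT. KO mouse 2 lay within the WT range of both sums, and KO mouse 3 within that of the follicle sum. Much of each sum is a single gene, Krt15 or Scd1, both picked after their values were seen. Krt15 was at 1560, 1917 and 3425 CPM in KO mice 2, 3 and 4, and 1526 to 2877 CPM in WT. Scd1 was at 846, 2612 and 1536 CPM in KO, and 1013.5 to 1541 CPM in WT. The overlap of the sums therefore depends largely on Krt15 and Scd1 and does not describe the rest of each list. Of the 14 follicle markers 4 were higher in KO without overlap, and 2 of 11 tested sebaceous markers, against 3.44% of all genes tested. In both lists 0 were lower without overlap. Lhx2, with the smallest p of the follicle list, was at 90.7 to 209 CPM in KO and 10.5 to 48.1 CPM in WT. Fa2h, with that of the sebaceous list, was at 285 to 590 CPM in KO and 115 to 256 CPM in WT. The highest sebaceous sum was in KO mouse 3, as was the highest Defb8, and Scd1 alone made 2612 of those 4949 CPM. The parts of Scd1 and of the other sebaceous markers in this match were not tested. edgeR called 0 of the genes tested in the suprabasal, follicle and sebaceous lists, with 3 of 10, 5 of 14 and 5 of 11 at an unadjusted p under 0.05, against 4.31% of all genes tested. DESeq2 called Krt79, Lhx2 and Sox9 of the follicle list, Fa2h of the sebaceous list and Flg of the suprabasal list, against 0.985% of the 12493 genes it gave an adjusted p. limma-voom called Lhx2, Sox9 and Fa2h, against 0.171% of all genes. Of 7 sweat gland and duct markers, Krt7, Krt8 and Aqp5 had 0 counts, and the sum was 40.3 to 115 CPM in KO and 9.21 to 61.0 CPM in WT. Only 2 of them were tested, Prlr and Sox10, which made most of the highest sum (79.7 and 32.8 CPM in KO mouse 4). The part of these lists in the Defb8 values was not tested.

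Markers of immune cells that carry or induce defensins were also looked up. Of 12 neutrophil markers 8 had 0 counts in every library, Ly6g, Mpo, Csf3r and Cxcr2 among them, and the sum was 21.7 to 50.5 CPM in KO and 5.57 to 43.3 CPM in WT. The 11 T cell markers summed to 117 to 223 CPM in KO and 153 to 242 CPM in WT. The 8 macrophage markers summed to 1372, 592 and 607 CPM in KO mice 2, 3 and 4, and 480 to 904 CPM in WT. KO mice 3 and 4 thus lay within the WT range, and only KO mouse 2 above it. All 8 log2 fold changes were above 0 (median 0.31), against 49.5% of all genes tested. The 7 Langerhans and dendritic cell markers summed to 3368, 1901 and 1997 CPM in KO mice 2, 3 and 4, and 2104 to 2719 CPM in WT. KO mouse 2 was above every WT mouse, and KO mice 3 and 4 were below. edgeR called 0 of the genes tested in these 4 lists, and 0 had an unadjusted p under 0.05. DESeq2 and limma-voom also called 0.

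The signals that induce beta-defensins were asked about next. Of 92 genes in 4 lists (other antimicrobial proteins of skin, inducing cytokines and their signalling, receptors and ligands, and products of inflamed keratinocytes), 47 were tested and 0 were called by edgeR's quasi-likelihood test. At an unadjusted p under 0.05 there were 4 of 47, against 555 of all 12888 genes. DESeq2 called 1 of 47, against 123 of all genes, and limma-voom 0, against 22. Their median log2 fold change was -0.05, near the -0.01 of all 12888 genes, and 23 of 47 lay above 0. The lists hold Krt6b, Krt16 and Krt17 but not the closely similar keratin Krt6a. Krt6a was called over all genes, higher in KO (log2 fold change 2.32, edgeR adjusted p = 0.0256). The 0 called therefore covers the listed genes only.

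Among inducing signals 26 of 39 were tested, with 11 above 0, 15 below and a median of -0.08. Il17a, Il17f, Il17c, Il22 and Il6, cytokines that drive defensin production in keratinocytes, had 0 counts in all libraries, as did the receptor subunits Il17rc and Il22ra1. Other listed cytokines were detected, and those named here were picked after their values were seen. Il1b was at 10.5, 22.5 and 0 CPM in KO and 49.6, 19.9, 47.9 and 26.6 CPM in WT, with overlap (log2 fold change -1.71, SE 1.14). Il1a and Tnf had counts in some libraries of each genotype. The gene with the smallest p was Vdr, the vitamin D receptor, which in human keratinocytes drives antimicrobial peptide genes. Vdr was at 68.3, 86.8 and 120.1 CPM in KO mice 2, 3 and 4, and 20.2, 32.3, 35.3 and 43.8 CPM in WT mice 5, 6, 7 and 8. These ranges were apart, and the fitted difference was 1.48 on the log2 scale (SE 0.38), with an edgeR adjusted p = 0.519. DESeq2's Wald test called it (adjusted p = 0.0111). Fos, a subunit of AP-1, was at 105, 14.2 and 126 CPM in KO and 565, 288, 459 and 113 CPM in WT. WT mouse 8 lay among the KO values, and the fitted difference was -2.13 on the log2 scale (SE 0.64), with an edgeR adjusted p = 0.793.

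Of the other antimicrobial proteins 12 of 29 were tested, 6 above 0 and 6 below, with a median of 0.03. Camp, the cathelicidin, and Reg3g and Ltf had 0 counts throughout. Wfdc21, a secreted protein with a whey acidic domain, was at 379, 411 and 327 CPM in KO and 525, 476, 636 and 439 CPM in WT, lower in every KO mouse than in any WT mouse (log2 fold change -0.48, SE 0.21, edgeR adjusted p = 0.9997). Wfdc5, of the same family, was at 34.9 ± 17.7 CPM in KO and 66.2 ± 30.7 CPM in WT, with overlap (log2 fold change -0.92, SE 0.48). The S100 alarmins, chosen after their values were seen, were low and mixed. S100a8 was at 10.3 ± 0.609 CPM in KO and 13.6 ± 12.8 CPM in WT, and S100a9 at 19.7 ± 13.5 CPM in KO and 8.17 ± 6.43 CPM in WT.

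Of 10 receptors and ligands 4 were tested, 1 above 0 and 3 below, with a median of -0.39. Ccr6, the chemokine receptor that beta-defensins can engage, and its ligand Ccl20 had 0 counts in all 7 libraries. Mrgprb2, a mast cell receptor for cationic peptides, was at 4.66 ± 4.11 CPM in KO and 13.1 ± 12.5 CPM in WT. Cftr was at 20.9 ± 33.7 CPM in KO and 14.1 ± 23.3 CPM in WT, so both varied more within than between groups. Of 15 inflammation products of keratinocytes 6 were tested, 5 above 0 and 1 below, with a median of 0.51. Krt16, a stress keratin, was at 59.7, 20.9 and 18.8 CPM in KO and 0, 1.80, 9.08 and 6.19 CPM in WT, without overlap (log2 fold change 2.95, SE 1.29, edgeR adjusted p = 0.9997). Krt17, another stress and follicle keratin, was at 825 ± 139 CPM in KO and 601 ± 108 CPM in WT, with overlap.

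**Figure D4:**
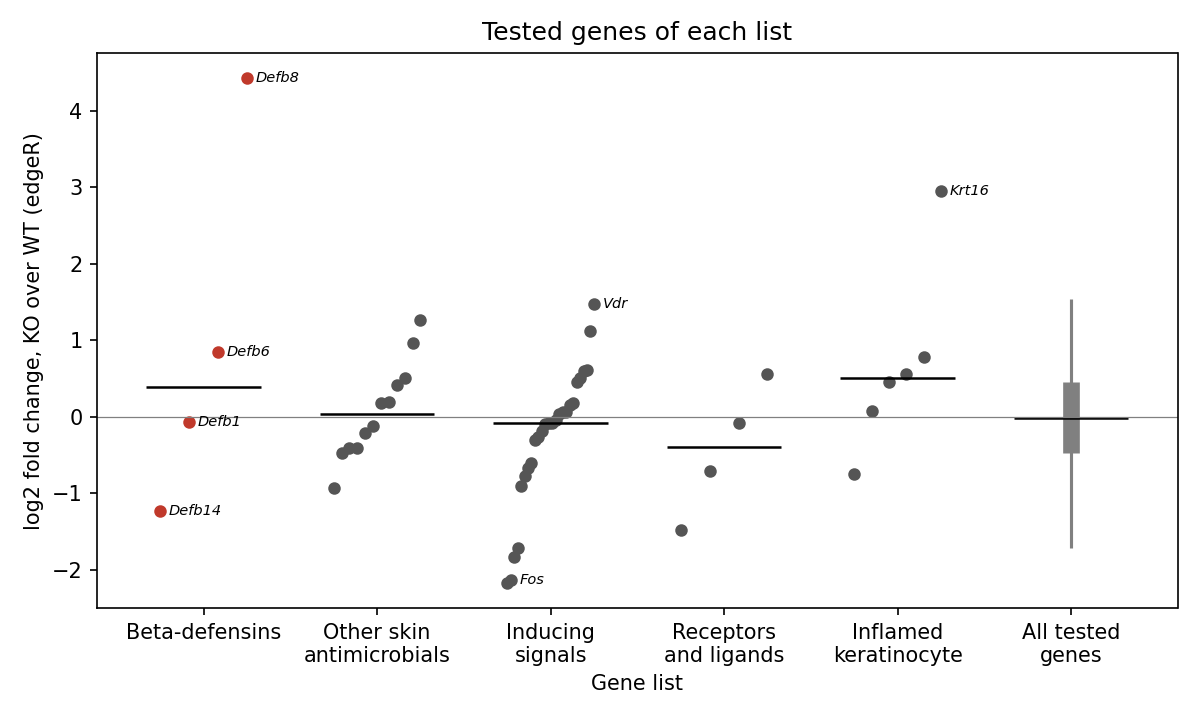
Log2 fold change, KO over WT, of each tested gene of the beta-defensins and the 4 other lists, with lines for medians, and for all 12888 tested genes the median (line), the 25th to 75th percentile (thick bar) and the 5th to 95th percentile (thin bar, -1.72 to 1.54). Defb8, which was chosen for its difference, lies at 4.43, above every tested gene of the lists, and the list medians run from -0.39 to 0.51. Listed genes that did not pass the filter on low counts are not drawn.

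The 5 named genes most like Defb8 across the 7 libraries were picked by Pearson's r of log2 CPM among 10375 genes with an average log2 CPM of at least 1. They were Actn1 (r = 0.97), Cep162 (r = 0.96), Ptn (r = 0.96), Stk3 (r = 0.96) and Smim19 (r = 0.95). All 7 points share the split into KO and WT, which sets much of r. Actn1, which encodes alpha-actinin of focal adhesions and stress fibres, was at 194 to 214 CPM in KO and 116 to 147 CPM in WT. Ptn, which encodes the growth factor pleiotrophin, was at 26.0 to 85.1 CPM in KO and 3.31 to 12.3 CPM in WT, the widest ratio of the 5 (log2 fold change 2.71, SE 0.71, edgeR adjusted p = 0.534). None of the 5 was called. Of the other members, Defb6 had an r of 0.65 with Defb8, Defb1 of -0.11 and Defb14 of -0.31. Krt6a, another gene called over all genes, was at 721, 322 and 481 CPM in KO mice 2, 3 and 4. In WT mice 5, 6, 7 and 8 it was at 74.0, 74.3, 135 and 124 CPM, lower than in every KO mouse. Among the KO mice, Defb8 was highest in mouse 3, the lowest of them for Krt6a.

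Closely similar copies can take or lose each other's reads. In GENCODE M21 transcripts, 23 of the 238 stretches of 50 bases in Defb8 also occur in Defb4, all within its first 72 bases. In the last 100 bases, the part nearest the 3' end, 0 of 51 such stretches were shared. Where reads fell along the 287 bases of the Defb8 transcript was not looked at. At 30 bases 53 of 258 stretches of Defb8 were shared with Defb3, Defb4, Defb5 or Defb7, 10 of them in the last 100 bases, all with Defb7. Defb7 had 0 counts in all libraries and Defb4 only 32. Defb6, Defb1 and Defb14 shared no stretch of 30 or 50 bases with another gene. Read length and the handling of reads that map to several places are not given in the sources used here, so the Defb8 level remains uncertain to that extent.

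**Figure D5:**
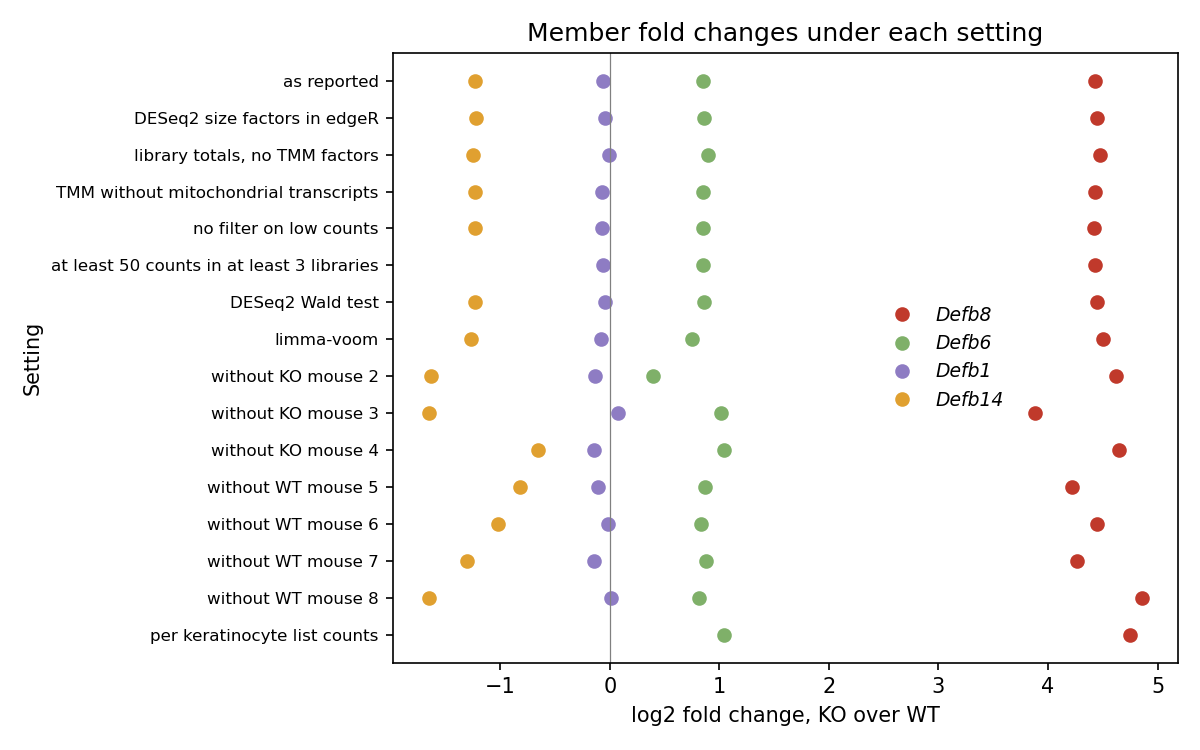
Log2 fold change, KO over WT, of the 4 tested beta-defensins (Defb8 red, Defb6 green, Defb1 purple, Defb14 orange) as reported and under each other setting. The setting per keratinocyte list counts is a difference of mean log2 ratios. Defb8 stays between 3.88 and 4.86, Defb6 between 0.40 and 1.04, Defb14 between -1.65 and -0.65, and Defb1 lies on both sides of 0.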

How the data were processed

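Values start from gene-level raw counts, deposited by the authors beside exon coordinates. Per the labels, RNA from powdered frozen skin was extracted with TRIzol and made into QuantSeq 3' libraries. Per the submitters' processing notes, the build was mm39 and the tools included featureCounts, edgeR 3.36.0, Subread 2.0.3, GATK 4.2.4.0 and STAR, in no stated order. Strand use, duplicates and reads with several positions are not given in the sources used here. The authors also deposited log2 CPM for 12954 genes. Recomputing from the counts gave each of these 90678 values within 1e-06, and the table keeps 4 of the 6 members, without Defb3 and Defb4.

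Raw counts of all 7 libraries were fitted in edgeR 4.0.16 (R 4.3.3) with the default expression filter (minimum of 10 counts), TMM factors and the quasi-likelihood F test, knockout over wild type. This left 12888 of 19128 genes with any count, and calls used a Benjamini-Hochberg adjusted p below 0.05. An SE is the fold change divided by the root of F. Levels are TMM-scaled CPM with SDs over mice. P-values weigh the difference between the genotypes against the spread between these mice, which edgeR estimates partly from other genes. The common biological coefficient of variation was 108%. DESeq2 1.42.0 and limma 3.58.1 were run as alternatives over all genes, and Biopython 1.88 aligned upstream sequences. The procedure was tested on simulated data.

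The members and gene lists were chosen with earlier results of these data known. Named genes were the members, the 2 genes of each list with the smallest p where none was called, and the 5 genes most like Defb8; others are marked. Mouse numbers are not shared between genotypes, so nothing was paired.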

Additional observations from a re-analysis of the deposited data

How the results depend on the processing

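No paired analysis was possible because the 2 genotypes share no mouse number. Over all genes, 3 were called, and also 3 with DESeq2 size factors, library totals, TMM factors without mitochondrial transcripts, or at least 50 counts in at least 3 libraries. The count was 76 with no filter on low counts, 123 with DESeq2's Wald test, 22 with limma-voom, and 0 to 1 with a mouse left out. Defb8 had a log2 fold change of 4.50 with limma-voom and was not called there. With a mouse left out it ran from 3.88 to 4.86, and was not called without KO mouse 3 or WT mouse 5, 6 or 7. Its direction held in all 15 settings, which, since Defb8 was chosen for this difference, is no support for it. Of genes in the 4 pathway lists, 0 were called, against 2 with no filter on low counts (Fos, and Klk6 chosen after its values were seen) and 1 with DESeq2's Wald test (Vdr). Defb6 was above 0 in all 15 settings (0.40 to 1.04) and Defb14 below 0 in all 13. Defb1 was above 0 in 2 of 14, both with a mouse left out (0.07 without KO mouse 3, 0.01 without WT mouse 8). The causes were not tested. Counts were low for Defb14 (at most 116 per library), Defb4 (at most 32) and Defb8 in WT (39 to 112).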

Other observations

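Some genes of the list of keratinocyte inflammation products had counts in 1 genotype only, and all genes named here were chosen after their values were seen. Krt6b, a stress and follicle keratin, had 408 counts (52.8 CPM) in KO mouse 2 and 0 in the other 6 libraries. Klk6, a secreted serine protease of the kallikrein family, had 636 and 76 counts (82.3 and 8.51 CPM) in KO mice 2 and 3, and 0 in KO mouse 4 and the 4 WT mice. KO mouse 2 is also the mouse with the most hair shaft transcripts and the most Defb6. In the other direction, Cxcl1 had 0 counts in KO and 78 and 1 counts in WT mice 6 and 8, Cxcl5 had 0 in KO and 73 in WT mouse 6, and Cxcl10 had 0 in KO and 3 in WT mouse 6, all of them chemokine genes. Krt6b is closely similar to Krt6a, so its counts are uncertain. Tlr2, a receptor for bacterial lipoproteins that can induce beta-defensins, had 35 and 166 counts in KO mice 2 and 3 and 0 in the other 5 libraries.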
